A study of Aspergillus nidulans with 12 samples.

Results

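In RNA-Seq of Aspergillus nidulans mycelium, 445 of the 7729 genes listed were found in only 1 of the 2 tables of comparison that the authors deposited. A gene was taken as found in a table when its mean there was above 0, and as not found when that mean was exactly 0. By this rule 180 genes were found in the kaeA19 table only, which is 2.33% of the listed genes, and 265 in the kaeA25 table only, which is 3.43%. The genes AN8979, AN1586, AN0964, AN10179, AN10242 and AN11751 were left out, and 1 of these 6 would have met the rule. The genes were thus chosen by the means of the 2 tables, which are given below as a description with no test.

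The series holds 12 libraries of 4 strains, with 3 biological replicates each. The kaeA19 table covers the mutant kaeA19 and its kaeA+ control wt4, and the kaeA25 table covers the mutant kaeA25 and its kaeA+ control wt5. All 4 strains carry proA6 and were grown as mycelium in liquid minimal medium. The labels give kaeA19 the markers pabaA9 and biA2, biA3 or biA4, depending on the library, against pabaA9 and biA1 in wt4, while the methods of the study give pabaA12 and biA1 for kaeA19. Strains kaeA25 and wt5 both carry adF9, yA2 and phenA2, so the strains of 1 table differ from those of the other in their markers as well as in the kaeA allele. Each genotype is represented by 1 strain, and the study describes both mutants as slower in growth than the wild type. Differences between the tables in allele, markers, growth and processing cannot be told apart.

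The gene kaeA encodes the Kae1 subunit of KEOPS, a conserved complex that takes part in the modification of tRNA. A. nidulans is a filamentous fungus in which many enzymes of a pathway that is not needed for growth, such as the synthesis of a polyketide or the use of an unusual carbon source, are encoded side by side in clusters. Such clusters are known to be weakly transcribed under many conditions of growth and strongly under particular ones. The deposited mean of kaeA itself was 716 normalized fragments in the kaeA19 table, against 868 in the kaeA25 table. Since each mean joins mutant and control libraries, it does not check the labels.

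The value used for every gene is the authors' mean over the 6 libraries of a table, in normalized fragments per library and not divided by gene length. It orders genes by fragments and not by transcript level, and the tables were normalized separately, so levels are set side by side across them only. Over all genes these means summed to 22310300 fragments in the kaeA19 table, against 21992800 in the kaeA25 table. The 180 genes of the kaeA19 table made up 0.0369% of its sum, and for the 265 genes of the kaeA25 table this share was 0.0603%. No gene was at 0 in both tables. Of all 7729 listed genes, 7283 were above 0 in both tables. Housekeeping genes were above 0 in both tables (5 of 5), and so were the listed conidiation genes (12 of 12, from 16 on the list).

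Most of the 445 genes were weak. Those found in the kaeA19 table only had a lowest mean of 11.8, a median of 26.9 and a highest mean of 504. Those found in the kaeA25 table only had a lowest mean of 11.2, a median of 29.7 and a highest mean of 457. Genes above 0 in both tables had a median of 1045 in the kaeA19 table, against 1006 in the kaeA25 table. Only 226 of the 7464 genes above 0 in the kaeA19 table had a mean under the median of the 180 genes, and 301 of the 7548 genes above 0 in the kaeA25 table had one under that of the 265. A mean of at least 100 was reached by 13 genes of the kaeA19 table and by 25 of the kaeA25 table.

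**Figure D1:**
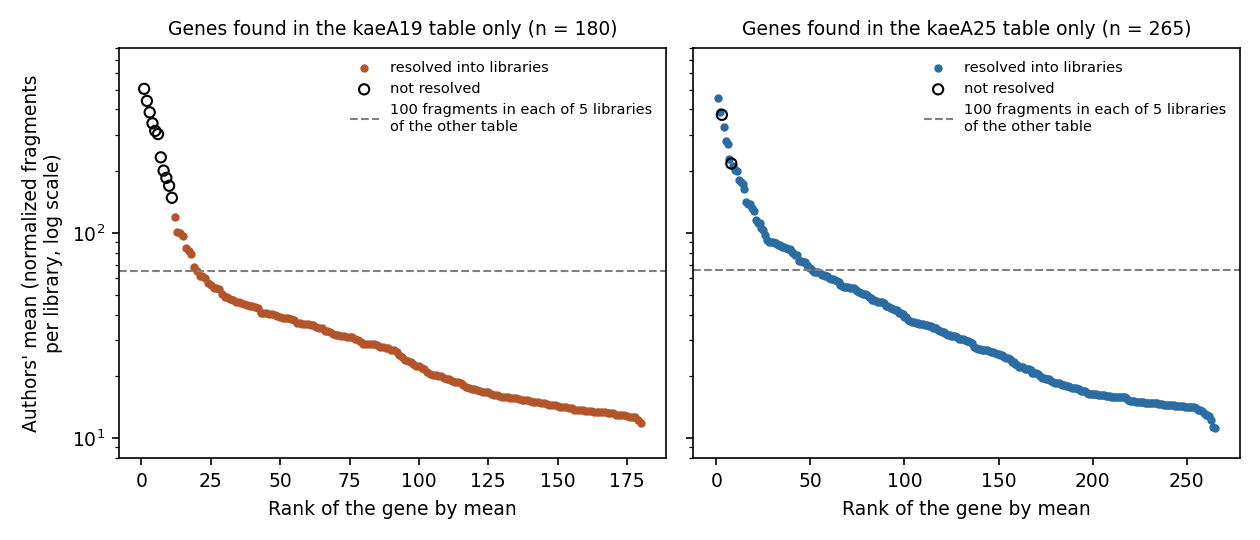
Authors' mean (normalized fragments per library, log scale) of each gene found in the kaeA19 table only (left, 180 genes) and in the kaeA25 table only (right, 265 genes), ranked within its table. Open circles are genes whose mean could not be resolved into whole counts per library, and the dashed line is the mean that 100 fragments in each of 5 libraries of the other table would give, which 19 genes (left) and 50 genes (right) exceed.

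The low means carry the whole fragment counts behind them. A mean multiplied by 6 is the sum over libraries of a whole count times a fixed step for each library, the inverse of its normalization factor, and the steps of 5 of the 6 libraries could be recovered in each table. The libraries found in this way have no strain name. They are called a to e within a table, in the order of how many of the genes they hold, and letters of the 2 tables are unrelated. The means of 169 of the 180 genes and of 263 of the 265 genes were resolved into counts. The smallest count was 101 fragments in both tables. Where 1 or 2 libraries explained a mean, counts down to 1 were allowed and none under 101 was found, while for more libraries only counts from 101 upward were searched. The sources used here state no such limit, and it is read from the values alone. A library in which a gene contributed 0 can therefore have held up to 100 fragments of it.

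A mean of 0 thus does not show that a gene was silent. With 100 fragments in each of the 5 recovered libraries, a gene would have reached a mean of 65.2 in the kaeA25 table, or 65.9 in the kaeA19 table, if its counts had not been set to 0, and the sixth library would add to this. Of the genes found in the kaeA19 table only, 19 of 180 had a mean above the 65.2 of the kaeA25 table. Of those found in the kaeA25 table only, 50 of 265 had a mean above the 65.9 of the kaeA19 table. The other 161 and 215 genes could have been as abundant in the table where they are listed at 0 as in their own, so a difference was not detectable at this depth. Among genes above 0 in both tables, 93.6% and 94.2% had means above these levels. The sixth library would raise both levels by an unknown amount. Every recovered normalization factor scaled counts down, the lowest being 1.05 for the kaeA19 table and 1.18 for the other. If the factors of a table balance out, that of the sixth library scales counts up. Its 100 fragments would then add more to a level than those of any recovered library. The counts of 19 and 50 genes are therefore upper limits. How many of these genes lie below the raised levels was not determined, and it could be a large part.

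The genes just inside and just outside the rule had like values. AN7796, AN2186 and AN11990 were the lowest of the kaeA19 table, with means of 12.6, 12.2 and 11.8. Just outside the rule, AN6106 had 12.01 in the kaeA19 table, against 14.7 in the kaeA25 table, AN4811 had 12.4 and 46.7, and AN8962 had 12.6 and 146. AN3360, AN8492 and AN10715 were the lowest of the kaeA25 table, with means of 12.3, 11.3 and 11.2. In the kaeA25 table AN2994 had 11.2, AN2540 11.7 and AN2657 11.7, with 49.2, 32.7 and 17.7 in the kaeA19 table. Each of these 12 means rested on 1 library.

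More of the 445 genes passed 100 fragments in 1 library only than other weak genes did. Of the 169 resolved genes of the kaeA19 table, 92 did so in 1 library, 66 in 2, 10 in 3 and 1 in 4. Of the 263 resolved genes of the kaeA25 table, 159 did so in 1 library, 62 in 2, 22 in 3, 19 in 4 and 1 in 5. Genes with a sum under 600 over the 6 libraries that were above 0 in both tables gave lower shares for 1 library. In the kaeA19 table this share was 55.1% of the genes found there only with such a sum, against 23.0% of the 704 others, and in the kaeA25 table it was 65.8%, against 28.2% of the 660 others. The rule favours genes of few libraries, so these shares are a description. Where 1 library held a gene, the median count was 120.5 fragments in the kaeA19 table, against 132 in the kaeA25 table, both close to the smallest count, and 26 of 92 and 35 of 159 such genes had at most 110 fragments.

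One library stood apart in the kaeA25 table. Library a held over 100 fragments of 196 of the 263 resolved genes, against 39 to 81 in libraries b to e, and it was the sole support of 108, against 10 to 16. Without library a, 157 of the 265 genes would be found in the kaeA25 table only. It was not in the same way prominent among weak genes above 0 in both tables, where library a was the sole support of 35 of 186 genes and library e of 95. Libraries a, b, c and d of the kaeA19 table were the sole support of 32, 21, 32 and 7 genes, and library e of none. Of the 66 genes that passed in 2 libraries of the kaeA19 table, 50 did so in a and b.

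The rule also looks back through the other table. Leaving out library e of the kaeA25 table would put at least 273 genes, in place of 180, among those found in the kaeA19 table only, since 93 further genes rest on it in the kaeA25 table. Which strains libraries a and e belong to is not known, and their part in the results by strain was not tested.

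**Figure D2:**
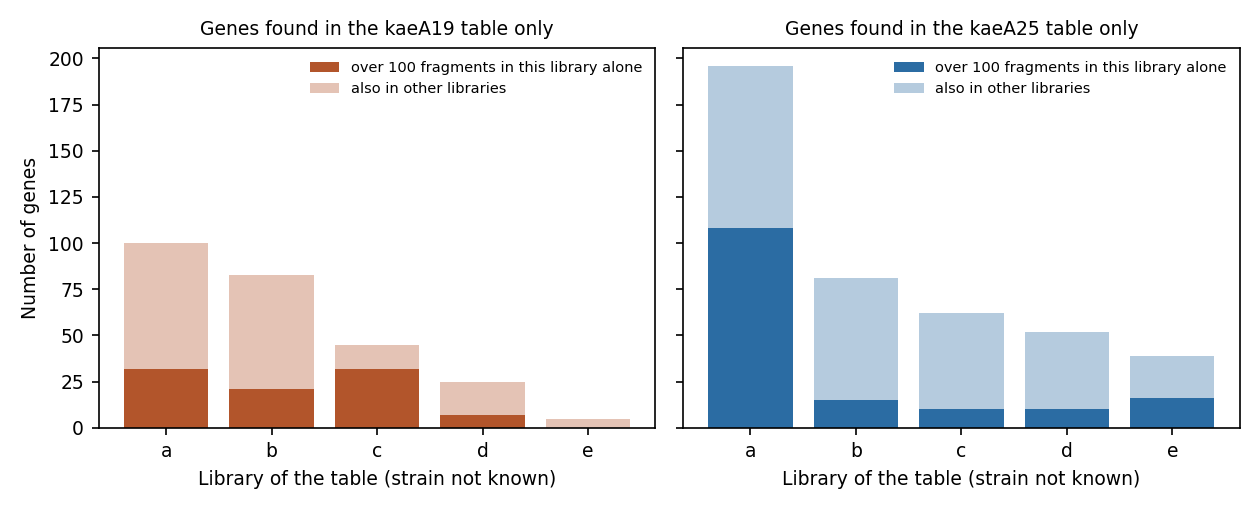
Number of genes with over 100 fragments in each of the 5 recovered libraries of the kaeA19 table (left) and the kaeA25 table (right), among genes found in that table only. Dark bars count genes that pass in that library alone (108 in library a of the kaeA25 table) and light bars genes that pass in other libraries too; the strain of a library is not known.

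The most abundant genes found in the kaeA19 table only were AN10588 with a mean of 504, AN11476 with 440, AN8400 with 387, AN8611 with 343, AN8174 with 314 and AN0736 with 303. AN8400 is annotated in the study as a sugar transporter and AN8611 as a protein with a catalytic domain linked to nucleoside metabolism. AN4339, of unknown function, followed with 234, AN10891, whose orthologs take part in xylose transport and glucose import, with 201, AN6378 with 186, and AN1183, with a zinc-binding domain of transcription factors, with 170. AN7754 had 148 and AN4338 had 120. The 11 genes from AN10588 to AN7754 are those that could not be resolved into counts of the 5 libraries, so the libraries that held them are not known. AN4338 had 383 fragments in library a and 561 in b. All 12 means lay above the level that 100 fragments in each recovered library of the kaeA25 table would give.

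The most abundant genes found in the kaeA25 table only could mostly be followed by library. AN11584 had 1978 fragments in library a and 1395 in b, with a mean of 457. AN7897 had 1835 and 1030 in the same libraries, with a mean of 390. AN7881 had 822 in a, 1186 in b and 434 in e, with a mean of 327. These genes were high in libraries a and b and contributed 0 in c and d. AN0391 had 1477 fragments in a, 423 in b and 170 in c, with a mean of 281. AN5015 had 1201, 240 and 109 in a, b and c, with a mean of 212, and AN8449 had 1136 in a, 233 in c and 116 in d, with a mean of 201. In these 3 genes library a held several times the fragments of the next library. AN7876 (mean 377) and AN9327 (mean 218) were not resolved, and AN7875, AN7899, AN7900 and AN5083, with means of 272, 230, 203 and 181, are described with their neighbours.

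Few of the genes found in the kaeA25 table only passed in many libraries. Of the 263 resolved, 19 passed in 4 and 1 in 5. Of the 660 weak genes above 0 in both tables, 115 passed in 4 and 42 in 5. Of the 20 genes that passed in 4 or 5 libraries, 18 had between 102 and 252 fragments in each library that passed, AN5083 and AN0016 being the exceptions. AN9242 passed in all 5, with 118, 110, 156, 192 and 116 fragments in libraries a to e. AN5985 had 125, 103, 124 and 125 in a to d, and AN7967 had 127, 168, 206 and 151 in b to e. The means of these 20 genes ran from 59.7 to 181. Among the 169 resolved genes of the kaeA19 table, only AN6972 passed in 4 libraries. AN6972 had 280, 256, 120 and 116 fragments in libraries a to d and a mean of 97.1. The 11 genes of that table that were not resolved could not be counted in this way.

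Among the lists of pathway genes, that of sterigmatocystin, a polyketide toxin related to aflatoxin, held 4 genes found in the kaeA19 table only, more than any other list. Of the 22 genes of its cluster 7 were listed in the tables. AN7814, AN7816, AN7824 and AN7825 were found in the kaeA19 table only and none in the kaeA25 table only. Over all 7729 listed genes, 2.33% were found in the kaeA19 table only. The lists were chosen with earlier results of these data known, so the count of 4 is a description with no test. AN7814 had 212, 178 and 249 fragments in libraries a, b and c, with a mean of 82.0. AN7816 had 155 in c and 120 in d (mean 34.3), AN7824 had 120 in c (mean 15.8), and AN7825 had 115 in b and 195 in c (mean 40.3). Library c was thus the one library that held all 4. Among weak genes above 0 in both tables, library c was the sole support of 82 of the 162 that passed in 1 library. The other 3 listed genes were above 0 in both tables, AN7805 with 39.4 in the kaeA19 table, against 13.9 in the kaeA25 table, AN7815 with 275 and 87.0, and AN7822 with 39.2 and 53.9. AN7814 alone of the 4 had a mean above the 65.2 named above.

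Other lists gave isolated genes. Of 20 listed genes of other secondary metabolite clusters 18 were above 0 in both tables, as were 7283 of all 7729 listed genes. The exceptions were aptC (AN6002, RefSeq symbol nscC), a monooxygenase of the asperthecin cluster, found in the kaeA19 table with 161, 164 and 108 fragments in libraries a, b and d, and cicF (AN6448), the polyketide synthase of the cichorine cluster, found in the kaeA25 table with 457 fragments in library a. Of the 2 listed genes of the ethanol use cluster, alcM (AN8977) was found in the kaeA19 table only, with 130 and 122 fragments in a and b, while alcR, the activator of the cluster, had means of 146 in the kaeA19 table, against 63.6 in the kaeA25 table. Of 5 listed genes of plant cell wall breakdown, the xylanase gene xlnB (AN9365) was found in the kaeA19 table only, with 136 and 184 fragments in a and b. Of 8 listed sexual development genes, the mating-type gene MAT2 (AN4734) was found in the kaeA25 table only, with 111, 119 and 124 fragments in libraries a, c and d. The other 7 were above 0 in both tables.

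Of the genes with a symbol that are on none of the lists, 4 were found in the kaeA19 table. The alpha-galactosidase gene aglC (AN8138), so annotated in the study, had 372 fragments in library a and 144 in b, with a mean of 64.9. aguA (AN9286), which encodes an alpha-glucuronidase, had 107 fragments in library c and a mean of 14.1. Of the further genes with a RefSeq symbol, aspf34 (AN8333) had 312 and 355 fragments in a and b (mean 84.5) and aspf2 (AN1832) 278 in c (mean 36.5), both named after allergens of Aspergillus fumigatus.

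In the kaeA25 table, coaT (AN1547), a coenzyme A transferase gene, had 428, 108 and 101 fragments in libraries a, b and c and a mean of 85.3. chsD (AN1046), a chitin synthase gene, had 137 fragments in a (mean 19.3), and clrD (AN1170), which encodes a histone methyltransferase of heterochromatin, had 112 in c and 107 in d (mean 26.9). xanB (AN2606) had 188 in a and 143 in c (mean 42.3), fma-PKS (AN7084), named after a polyketide synthase of Aspergillus fumigatus, 115 in a (mean 16.2), tpcA (AN6447) 235 in a (mean 33.1), and tpcB (AN0149) 305 in a and 116 in b (mean 57.8). Library a was the sole support of chsD, fma-PKS and tpcA and held all of these genes other than clrD. In all, 12 of the 445 genes had a RefSeq symbol, 4 of the kaeA19 table and 8 of the kaeA25 table, and 2 genes of the kaeA19 table were pseudogenes.

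Some of the genes found in 1 table lay next to each other. In the gene order of RefSeq, 406 of the 445 genes could be placed, and 129 of these (31.8%) had another of the 445 as the nearest listed gene on one side. Among the 6927 other listed genes that could be placed, 8.96% had one. With all annotated genes as possible neighbours, 81 of the 406 (19.95%) had such a neighbour, against 5.50% of the other listed genes. Of the 245 genes of the kaeA25 table that were placed, 74 (30.2%) lay beside a gene found in the same table, and 5.21% of the other listed genes lay beside a gene of that table. Of the 161 genes of the kaeA19 table that were placed, 18 (11.2%) lay beside a gene of the same table, and 3.88% of the other listed genes did. Position was not used by the rule, and these shares were not tested, since neighbouring genes are not independent. Left without the genes that rest on library a of the kaeA25 table alone, 81 of 304 placed genes (26.6%) had such a neighbour among listed genes. Of placed genes of the kaeA25 table, 30 of 143 (21.0%) then lay beside one of the same table, in place of 74 of 245. The shares of other listed genes were not counted again for this smaller set, so 8.96% and 5.21% do not apply to it.

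These neighbours formed 52 runs, 37 pairs and 15 runs of 3 or more. Genes of the kaeA25 table alone made up 24 runs, of which 7 had 3 or more genes, and genes of the kaeA19 table alone made up 7, all pairs. The other 21 runs, with 24 genes of the kaeA19 table and 28 of the kaeA25 table, held both, such as AN0482 (129, 109 and 133 fragments in libraries a, c and d of the kaeA19 table) beside AN0483 (359, 103 and 308 in a, c and d of the kaeA25 table). AN0482 and AN0483 were thus found in different tables, which share no library.

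The longest run was 8 genes of the kaeA25 table, AN5090, AN5088, AN5087, AN10628, AN10629, AN10626, AN10631 and AN5083. Library a held over 100 fragments of all 8, from 139 for AN10629 to 902 for AN5083, and was the sole support of 5. AN5088 had 224, 133, 207 and 104 fragments in libraries a to d, AN10631 had 321, 106 and 154 in a, c and d, and AN5083 had 902, 112, 204 and 105 in a, c, d and e. The gene before the run, AN5092, had a mean of 43.2 in the kaeA19 table, against 32.4 in the kaeA25 table, and the gene after it, AN5082, had 173 and 181. Without the genes of library a alone, AN5088, AN10631 and AN5083 would remain.

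A run of 5 genes contained cicF. AN6449, AN6448 (cicF), AN6447 (tpcA), AN6445 and AN6444 had 191, 457, 235, 243 and 468 fragments in library a of the kaeA25 table and contributed 0 in libraries b to e. All 5 therefore rested on 1 library. Of the genes on either side, AN6450 had 68.2 in the kaeA19 table, against 198 in the kaeA25 table, and AN6443 had 1511 and 2288.

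**Figure D3:**
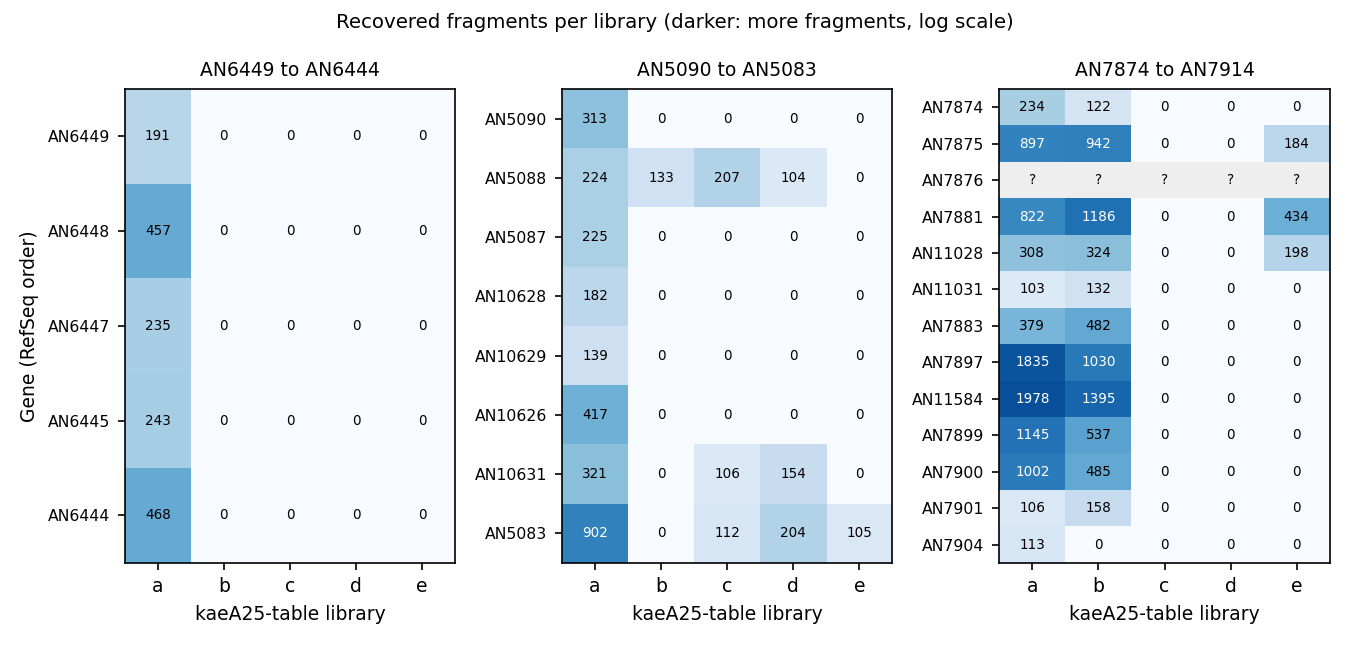
Recovered whole fragment counts in libraries a to e of the kaeA25 table for genes found in that table only, in 3 stretches of neighbouring genes (rows, in RefSeq order). A 0 marks a library that contributed nothing to the mean, a question mark the unresolved AN7876; the 5 genes on the left pass in library a alone, with 191 to 468 fragments, and those on the right mostly in a and b.

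Several runs lay close together from AN7874 to AN7914, a stretch whose bounds were chosen after its values were seen. It held 34 listed genes, 13 of them found in the kaeA25 table only and none in the kaeA19 table only. It comprised the runs AN7874 to AN7876, AN7881 to AN7883, AN7897 with AN11584, and AN7899 to AN7901, and the lone AN7904. In 11 of the 12 resolved genes both library a and library b held over 100 fragments, and libraries c and d contributed 0. AN7875 had 897, 942 and 184 fragments in a, b and e, AN11028 308, 324 and 198 in the same libraries, and AN7883 379 and 482 in a and b. AN7899 had 1145 and 537 in a and b, AN7900 1002 and 485, and AN7901 106 and 158. The weakest were AN7874 with 234 and 122, AN11031 with 103 and 132, and AN7904 with 113 in a alone. This stretch did not depend on library a, since 11 of its genes also passed in b.

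Of the 21 other listed genes of this stretch, all but AN7889 (825 in the kaeA19 table, against 793 in the kaeA25 table) had the higher mean in the kaeA25 table. Over all genes above 0 in both tables, the median ratio of the means (kaeA19 table over kaeA25 table) was 1.03. AN7880, beside AN7881, had 13.4 in the kaeA19 table, against 1093 in the kaeA25 table, and AN7884 had 566 and 4800. AN7893, AN7894 and AN7895 had 49.8, 31.7 and 47.0 in the kaeA19 table, against 1124, 681 and 1027 in the kaeA25 table. Beyond the run at AN7901, AN7902 had 31.8 and 881, and dbaI (AN7903), a polyketide synthase gene, had 235 and 4076. The orsellinic acid genes orsA to orsE closed the stretch. Of these, orsA (AN7909) and orsE (AN7914) had 289 and 55.8 in the kaeA19 table, against 2748 and 2416 in the kaeA25 table. The differences were smaller for orsB (AN7911), with 21.4 and 138, orsC (AN7912), with 82.4 and 235, and orsD (AN7913), with 544 and 881. In the middle of the stretch AN7890 had 87.7 and 104, AN7891 17.3 and 27.5, and AN7892 3677 and 3832.

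**Figure D4:**
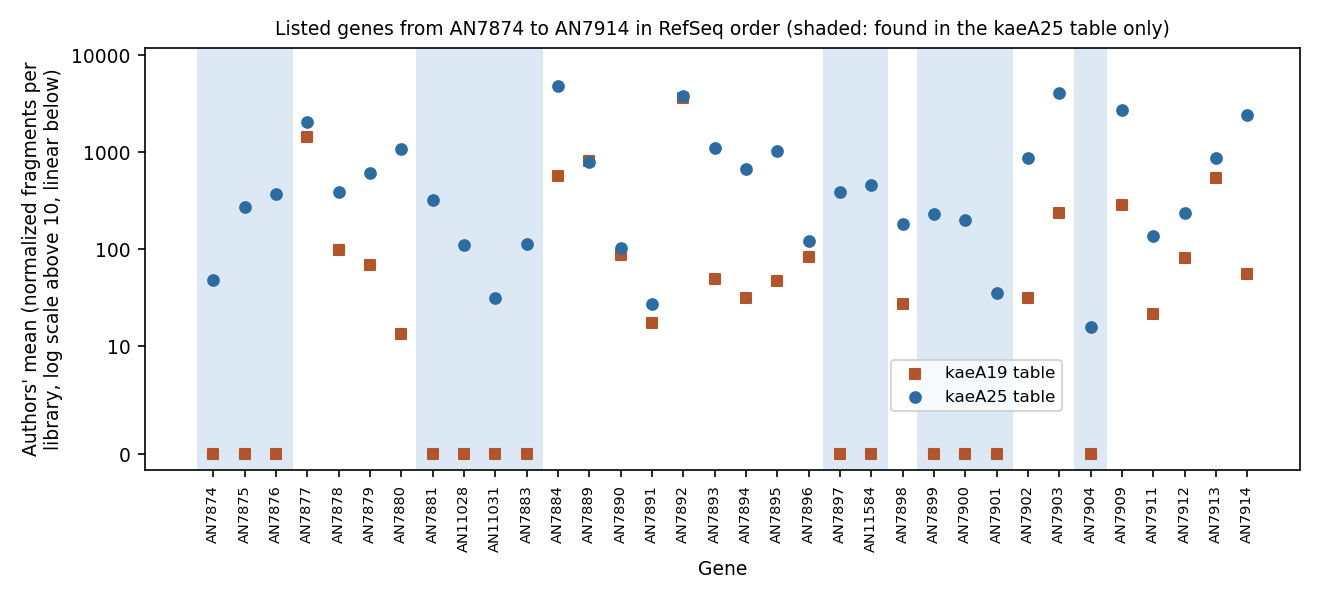
Authors' mean (normalized fragments per library; log scale above 10, linear below) of the 34 listed genes from AN7874 to AN7914 in RefSeq order, in the kaeA19 table (squares) and the kaeA25 table (circles), which were normalized separately. Shaded genes are the 13 found in the kaeA25 table only, whose squares lie at 0; among the 21 genes not shaded, the circle lies above the square in 20.

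Of the remaining runs of 3 in the kaeA25 table, that of AN2602 was weak, and the other held AN0016 with 2 weak genes. AN2602, AN2604 and AN2606 (xanB) had means of 14.5, 18.1 and 42.3, and AN0016, AN0015 and AN0009 had 138, 14.4 and 22.2. AN0016 had 594, 167, 171 and 103 fragments in libraries a, b, c and e, while AN0015 passed in a alone and AN0009 in b alone. Of the 34 genes in the 17 pairs of the kaeA25 table, whose means ran from 13.96 to 457, 27 passed in library a. Of all 263 resolved genes found in that table only, 196 did so. Among the pairs, AN2374 had 207, 104, 193 and 157 fragments in a, b, d and e and AN2375 255, 253 and 104 in a, d and e. Other pairs joined a strong gene to a weak one, such as AN5015 to AN5017 (197 fragments in a), AN2822 (1154 in a and 104 in c) to AN2823 (188 in a), and AN3783 (1006 in a and 281 in b) to AN3781 (174 in a and 158 in d).

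The 7 pairs of the kaeA19 table were mostly held by libraries a and b. Of their 13 resolved genes 12 passed in library a, 10 in b and 9 in both. Among all 169 resolved genes found in that table only, 100 passed in a and 83 in b. AN4339, with a mean of 234, lay beside AN4338, and they ranked 7 and 12 by mean among the 180 genes. AN8964 had 244 and 297 fragments in a and b and AN8963 104 and 149. AN8092 had 141 and 216 and AN8093 103 and 197, and AN10425 had 103 and 142 beside AN3530 with 174 and 223. In these 3 pairs library b held more than library a in both genes. AN4009 (122 in a and 106 in b) lay beside AN4008 (179 in a), AN5353 (111 in a and 119 in c) beside AN10662 (103 in b), and AN6873 (128 in a and 168 in b) beside AN6869, which had 142 fragments in a, 323 in d and 290 in e.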

How the data were processed

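RNA was measured in mycelium of 4 strains (12 libraries). Per the labels and the study's methods, rRNA-depleted RNA was sequenced in pairs, reads were checked with FastQC, aligned with TopHat2 (version 2) and Bowtie2 to the FGSC A4 assembly of AspGD (s09-m04-r07), and fragments were counted per gene with ShortRead. Use of strand in the counting was not given in the sources used here. Overlapping genes, antisense genes and near-identical copies may therefore share fragments. The deposited signal is the authors' mean of normalized fragment counts, each count having been scaled by its library's factor, over the 6 libraries of a table. The other 5 columns of each table hold the authors' own comparison (fold change, its error, statistic, p-value and adjusted p-value) and were not used. A count test planned for mutant against control could not be run, because the values used are means over 6 libraries, so no difference between strains was tested.

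Steps per library were recovered from low means that are whole multiples of a common step. The mean of each of the 445 genes, and of other genes with a sum under 600, was then solved for whole counts over up to 5 libraries. A solution was kept when unique and when fewer than 0.01 such sums were expected by chance; the procedure was tested on simulated data. Counts carry no strain name. Recovered normalization factors ran from 1.05 to 1.43 in the kaeA19 table and from 1.18 (library a) to 1.51 in the kaeA25 table. The total fragments of each lettered library are unknown. Gene names and order came from RefSeq (ASM1142v1), which 7333 of 7729 genes matched and which is another build than that of the files, so no coordinates are given. Python 3.11.15, numpy 2.4.6, pandas 2.3.3, numba 0.67.0 and matplotlib 3.10.9 were used. Named genes were the 12 highest and 3 lowest of each table, and those with a symbol or on a list. Of genes beside another such gene, those in pairs of the kaeA19 table and in longer runs of only the kaeA25 table were all named. The pairs of the kaeA25 table and the runs with both tables were shown by examples picked after their values were seen. AN9242, AN5985, AN6972 and AN7904, and the other listed genes in or beside the runs, were chosen after their values were seen. The genes and lists were chosen with earlier results of these data known.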

Additional observations from a re-analysis of the deposited data

Results flagged for a closer look

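Library a of the kaeA25 table stood apart from the other 4 recovered libraries of that table in both of its counts. It was the sole library with over 100 fragments for 108 of the genes found in the kaeA25 table only, against 10, 10, 15 and 16 in the others, and it held over 100 fragments of 196 such genes, against 39 to 81. Its gap to the next library was 0.939 and 0.732 of the range over the 5 libraries in these counts, against 0.219 and 0.211 for the largest gap at either end of the range in the kaeA19 table. The genes were chosen on the means behind these counts, and the letters follow the second count, so these are a description and no test.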

How the results depend on the processing

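A mean below 25 in the other table, in place of exactly 0, gave 321 genes for the kaeA19 table and 386 for the kaeA25 table. With a mean of at least 25, 50 and 100 in the own table there were 93, 29 and 13 genes of the kaeA19 table and 152, 79 and 25 of the kaeA25 table. Keeping the 6 left-out genes gave 181 and 265. Leaving out 1 recovered library at a time, an alternative chosen after seeing the data, gave 148 to 273 genes for the kaeA19 table, the highest without library e of the kaeA25 table, and 157 to 347 for the kaeA25 table, the lowest without its library a. These follow genes with a sum under 600 over 6 libraries, so counts that rise are lower bounds. The ratio of the median means (kaeA19 table over kaeA25 table) was 0.907, and 0.880 after scaling the tables by genes above 0 in both. With all annotated genes as possible neighbours, 81 genes in place of 129 lay beside another of the 445. Leaving out genes of library a of the kaeA25 table alone also gave 81, and leaving out genes of 1 library alone gave 49 (27.2% of 180 placed genes). Fewer genes can be neighbours in these counts by construction. No paired analysis was possible because the values used are means over 6 libraries, and for the same reason other normalizations of the counts, pseudocounts and fits without a labelled replicate were not run. Near-identical copies, coding length, promoter motifs and keyword classes were not run here, for want of sequences and product names. A level up to 100 fragments in each library could not be told from 0.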
